A study of Mus musculus with 56 samples.

Results

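The proteasome subunit genes of the mouse liver were followed in 56 mice given BCR-ABL1 tyrosine kinase inhibitors, L-NAME or vehicle. They are the 39 genes that GENCODE vM21 (GRCm38) annotates as protein-coding and whose symbol is Psma, Psmb, Psmc or Psmd followed by a number, out of 45513 gene identifiers in the deposited counts. The choice rests on the symbols and on no measured value. Of the 39 genes, 38 passed the filter on low counts. Psmb11, the catalytic subunit of the thymus, had no read in any of the 56 mice, which allows at most 3 reads in the 551200512 counted over all mice (counting error only).

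All mice were female APOE*3Leiden.CETP mice, 9 to 14 weeks of age, which carry the human APOE*3Leiden, APOC1 and CETP transgenes, the last under its own flanking regions, and all ate a Western-type diet with 15% cacao butter and 0.15% cholesterol. There were 7 groups of 8 mice. The control group received the vehicle, 5% carboxymethyl cellulose, by gavage, and the treated groups received imatinib 150 mg/kg gavaged 2 times per day, nilotinib 10 or 30 mg/kg in 1 gavage, ponatinib 3 or 10 mg/kg in 1 gavage, or L-NAME, an inhibitor of nitric oxide synthases, at 0.12 to 0.20% in the drinking water together with gavage of vehicle. Per the study's methods, each mouse outside the imatinib group had a further daily gavage of vehicle only. Treatment lasted 16 weeks in the drug and control groups, after a run-in of 3 weeks on the Western-type diet per the study's methods. The age stated for these groups is therefore not that at liver sampling. The duration for L-NAME is not given in the sources used here. The comparisons ask how each treatment changed liver mRNA against control, and how the inhibitors differed from each other.

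The proteasome degrades proteins that carry a chain of ubiquitin. Its 20S core particle is a barrel with outer rings of α subunits (Psma genes), which gate the entry, and inner rings of β subunits (Psmb genes), of which Psmb5, Psmb6 and Psmb7 carry the chymotrypsin-like, caspase-like and trypsin-like active sites. The 19S regulatory particle caps the barrel. Its base holds the ring of ATPases that unfolds substrates (Psmc genes) with the scaffold proteins Psmd1 and Psmd2 and the ubiquitin receptor Psmd4, and its lid removes ubiquitin chains. In cells exposed to interferon the active subunits are replaced by Psmb8, Psmb9 and Psmb10 in newly built particles, the immunoproteasome, which serves the production of peptides for MHC class I. Nfe2l1 is the transcription factor known to raise the constitutive subunits together when proteasome activity is short.

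Promoters are shown for the catalytic subunits with an entry and for Psma7, Psmd4 and Psmd1, which recur in the comparisons below. Of the 39 genes, 32 had a promoter in RefSeq (GRCm38.p6), with 34 start sites in all. Each sequence runs 5′ to 3′ from 250 bases before to 50 bases after the RefSeq start site. Capitals mark TGACNNNGC (the core of the antioxidant response element, bound by Nfe2l1), CCAAT (the CCAAT box) or GAAA followed after any 2 bases by GAAA (the core of the interferon-stimulated response element), searched on both strands, so that a match on the opposite strand reads as its reverse complement.
Psmb5 (chr14:54617946-54618245, minus strand): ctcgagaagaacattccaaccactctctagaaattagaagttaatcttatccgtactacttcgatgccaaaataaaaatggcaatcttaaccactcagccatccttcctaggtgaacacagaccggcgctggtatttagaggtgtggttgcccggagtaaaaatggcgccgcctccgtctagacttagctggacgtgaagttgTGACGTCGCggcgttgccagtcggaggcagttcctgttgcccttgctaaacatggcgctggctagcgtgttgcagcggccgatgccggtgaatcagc
Psmb6 (chr11:70525107-70525406, plus strand): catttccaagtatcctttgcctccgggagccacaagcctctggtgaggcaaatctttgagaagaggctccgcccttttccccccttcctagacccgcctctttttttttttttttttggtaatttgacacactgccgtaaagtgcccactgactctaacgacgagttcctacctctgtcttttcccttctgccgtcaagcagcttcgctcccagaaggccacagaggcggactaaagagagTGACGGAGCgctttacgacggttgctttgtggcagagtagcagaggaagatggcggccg
Psmb8 (chr17:34197945-34198244, plus strand): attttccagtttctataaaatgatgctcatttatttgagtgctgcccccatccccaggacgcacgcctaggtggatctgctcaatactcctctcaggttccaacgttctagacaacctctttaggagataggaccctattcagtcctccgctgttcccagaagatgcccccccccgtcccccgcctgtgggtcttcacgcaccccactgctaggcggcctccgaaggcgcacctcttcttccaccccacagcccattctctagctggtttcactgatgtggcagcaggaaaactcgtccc
Psmb9 (chr17:34187281-34187580, minus strand): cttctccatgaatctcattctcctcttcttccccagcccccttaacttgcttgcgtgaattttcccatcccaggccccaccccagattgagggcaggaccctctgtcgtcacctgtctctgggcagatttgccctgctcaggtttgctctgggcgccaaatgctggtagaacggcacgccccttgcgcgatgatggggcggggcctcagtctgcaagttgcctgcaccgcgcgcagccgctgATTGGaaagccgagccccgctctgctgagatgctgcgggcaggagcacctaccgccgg
Psmb10 (chr8:105938343-105938642, minus strand): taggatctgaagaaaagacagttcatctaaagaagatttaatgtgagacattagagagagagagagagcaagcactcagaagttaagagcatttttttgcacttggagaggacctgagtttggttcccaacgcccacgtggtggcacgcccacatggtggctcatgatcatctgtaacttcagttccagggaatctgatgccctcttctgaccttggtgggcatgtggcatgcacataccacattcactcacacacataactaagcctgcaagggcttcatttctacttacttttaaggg
Psma7 (chr2:180042415-180042714, minus strand): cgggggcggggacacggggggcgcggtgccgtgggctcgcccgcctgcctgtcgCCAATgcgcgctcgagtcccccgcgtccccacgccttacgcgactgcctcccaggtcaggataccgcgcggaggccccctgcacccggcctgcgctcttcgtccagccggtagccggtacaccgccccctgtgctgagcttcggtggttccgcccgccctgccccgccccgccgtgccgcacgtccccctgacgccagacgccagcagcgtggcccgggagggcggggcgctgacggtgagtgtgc
Psmd4 (chr3:95042565-95042864, minus strand): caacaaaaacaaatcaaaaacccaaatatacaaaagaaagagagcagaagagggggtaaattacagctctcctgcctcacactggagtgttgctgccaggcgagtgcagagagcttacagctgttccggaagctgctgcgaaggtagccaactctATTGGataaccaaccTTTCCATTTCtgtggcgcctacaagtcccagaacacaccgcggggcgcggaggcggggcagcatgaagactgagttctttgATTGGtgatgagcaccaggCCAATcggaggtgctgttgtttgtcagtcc
Psmd1 (chr1:86064369-86064668, plus strand): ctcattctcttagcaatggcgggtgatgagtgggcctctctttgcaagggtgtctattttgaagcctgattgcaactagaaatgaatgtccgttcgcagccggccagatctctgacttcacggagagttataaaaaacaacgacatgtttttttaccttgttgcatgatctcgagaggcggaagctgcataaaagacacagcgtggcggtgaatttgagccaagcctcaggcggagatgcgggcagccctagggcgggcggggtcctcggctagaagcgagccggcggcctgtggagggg

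TGACNNNGC was found in 5 of the 34 promoters, those of Psmb5, Psmb6, Psmc6, Psmd9 and Psmd12, against 12.4% of all 32851 promoters of the same length. CCAAT was found in 13 of 34, against 37.4%, and the paired GAAA in 3 of 34 (Psmb3, Psmd4 and Psmd9), against 3.44%. The windows of Psmb8, Psmb10 and Psmd1 held none of the 3 motifs, and that of Psmb9 held a CCAAT box. A match describes the letters of the window only.

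The libraries held 5342379 to 97473341 counted reads (median 7570238), the deepest being that of L-NAME mouse 10. No 2 mice had counts within sampling noise of each other. The hepatocyte markers Alb, Apoa1, Ttr, Cyp2e1 and Tat were at 0 in no mouse, and Alb had a median of 668905 reads. A mean of 7.97% of uniquely aligned reads lay outside annotated genes in control mice. The mean was 10.0% with imatinib (exact permutation test, two-sided, p = 0.00109, adjusted over the 6 groups 0.00131), and 9.75%, 10.5%, 11.0% and 11.0% with nilotinib 10 and 30 mg/kg, ponatinib 10 mg/kg and L-NAME, where all 8 mice of each group lay above every control mouse (p = 0.000155 each, the smallest p that 8 against 8 allow, adjusted 0.000233). With ponatinib 3 mg/kg it was 8.53% (exact permutation p = 0.0466, adjusted 0.0466). Control mouse 33 stood apart in the immunoproteasome genes, control mouse 46 in Psmd1 and mouse 18 of ponatinib 10 mg/kg in several subunits, and calls that were lost or gained without 1 of them are given beside the results they touch.

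In control livers the subunit genes differed widely in level per length. Expression is given in CPM, the counts after scaling of each library by its depth and TMM factor, and levels are compared between genes only after division by the exon length of the gene in kilobases. Psma6 was highest, at 73.0 to 103 CPM per kilobase (median 83.6), followed by Psmb4 at 67.6 to 95.5 (median 75.5), and the ranges of these neighbours overlapped. Psmc5 (median 51.5 CPM per kilobase), Psmb6 (48.1), Psmc3 (44.1) and Psmb2 (41.5) came next, each overlapping its neighbour in the order. The lowest of the genes read in every mouse were Psmb3 (6.36), the chaperones Psmd5 (4.66) and Psmd9 (4.57), and Psma3 (3.04). Psma8, the α subunit of the testis, was at 0.22 CPM per kilobase and had no read in 12 of the 56 mice. Psmb10 (29.3) lay near its counterpart Psmb7 (26.3), whereas Psmb8 (14.6) and Psmb9 (6.60) lay below Psmb5 (32.6) and Psmb6 (48.1) in the medians. Exon length here counts every annotated exon base, so a gene with long unused exons appears lower.

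**Figure D1:**
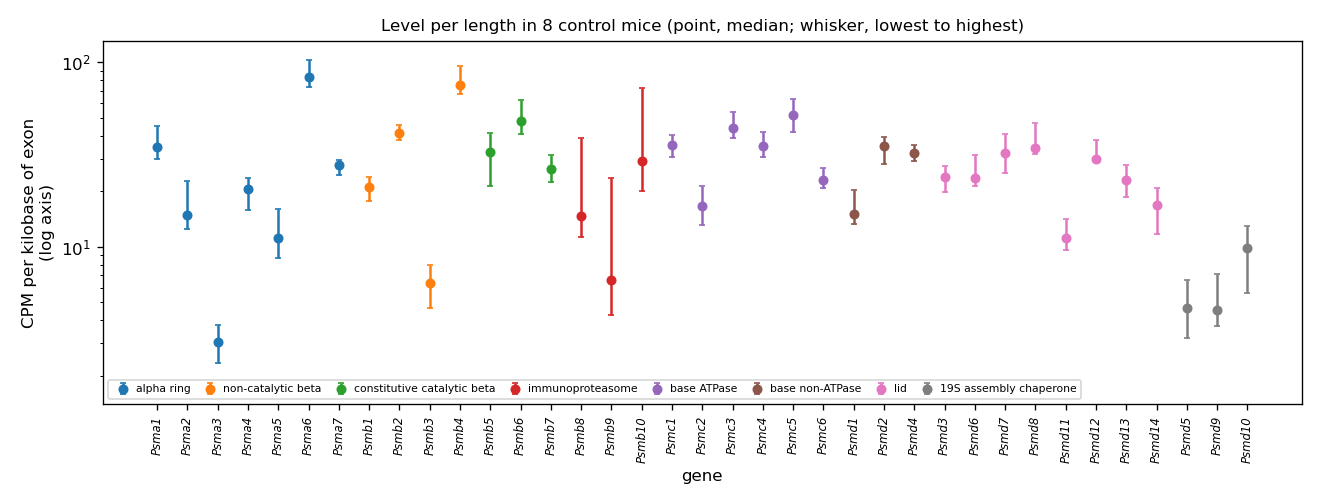
Level of 37 proteasome subunit genes in the 8 control mice, in CPM per kilobase of exon on a log axis, with the median as a point and the lowest and highest mouse as whiskers, coloured by the role of the gene. Psma6 (median 83.6) and Psmb4 (75.5) are highest, and the long upper whiskers of Psmb8, Psmb9 and Psmb10 are control mouse 33. Psma8 and Psmb11, which had mice at 0, are left out.

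The depth behind each gene is given as its lowest and highest read count over the 56 mice, where the highest was that of L-NAME mouse 10, the deepest library, for all 38 genes with reads. For the α ring these were 425 to 8780 for Psma1, 247 to 6040 for Psma2, 18 to 1425 for Psma3, 268 to 5670 for Psma4, 35 to 1862 for Psma5, 624 to 10873 for Psma6 and 521 to 10403 for Psma7, and 0 to 84 for Psma8. The β subunits without an active site had 530 to 11724 for Psmb1, 292 to 6694 for Psmb2, 66 to 2081 for Psmb3 and 1002 to 16744 for Psmb4. The catalytic subunits had 99 to 3351 for Psmb5, 421 to 12916 for Psmb6, 464 to 8097 for Psmb7, 204 to 8846 for Psmb8, 59 to 4169 for Psmb9 and 222 to 8788 for Psmb10. The ATPases had 407 to 6319 for Psmc1, 449 to 7920 for Psmc2, 608 to 11515 for Psmc3, 298 to 8193 for Psmc4, 346 to 7724 for Psmc5 and 332 to 6499 for Psmc6. In the rest of the base there were 237 to 4018 for Psmd1, 583 to 8777 for Psmd2 and 573 to 12225 for Psmd4. In the lid there were 542 to 10695 for Psmd3, 373 to 6465 for Psmd6, 335 to 5879 for Psmd7, 493 to 9728 for Psmd8, 320 to 4973 for Psmd11, 465 to 6391 for Psmd12, 304 to 6544 for Psmd13 and 145 to 3545 for Psmd14, and the assembly chaperones had 80 to 2689 for Psmd5, 218 to 4065 for Psmd9 and 17 to 1384 for Psmd10. The lowest median counts over the 56 mice were those of Psma8 (10), Psma3 (88), Psmd10 (113), Psma5 (135), Psmb3 (158) and Psmb9 (214), which carry the widest counting error. The sequence of Psma5 and Psmb5 is shared in large part with pseudogenes (50.0% and 54.1% of their 50-base stretches), and reads with more than 1 match were not counted, so their values are uncertain. The same holds in part for Psma3, Psma4, Psmb3, Psmc1 and Psmd2, where 14.1 to 17.8% of stretches are shared, and for Psmd9, where 25.5% of the exon bases overlap Gm26745. Exon bases also overlap other genes for Psmb8 (14.7%, Gm20496), Psmb5 (12.1%, Mir686), Psmb7 (11.8%, Nek6) and Psmd13 (10.1%, Sirt3).

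Against control, 5 to 8 of the 14 constitutive genes of the 20S core rose in 4 of the 6 treated groups, while genes of the 19S particle were called in both directions. Differences were tested by edgeR's quasi-likelihood test over 14314 genes with all 56 mice in one fit, and a gene was called at a Benjamini-Hochberg adjusted p-value below 0.05. With imatinib, 12 of 38 subunit genes were called higher and 1 lower, where 10.3% of all tested genes were called (5.69% higher, 4.58% lower). With ponatinib 10 mg/kg, 7 were higher and 3 lower, against 13.1% of all genes (7.24% higher, 5.87% lower). L-NAME gave 7 higher and 2 lower against 11.8% (5.55% and 6.24%). Nilotinib 30 mg/kg gave 6 higher and 1 lower against 5.77% (2.34% and 3.43%), and nilotinib 10 mg/kg 1 higher and 1 lower against 1.41% (0.468% and 0.943%).

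Ponatinib 3 mg/kg changed no subunit gene by this test, where 0.0419% of all genes were called. At an unadjusted p below 0.05 there were 5 higher and 1 lower, beside 4.81% and 5.15% of all genes. DESeq2 and limma voom also called 0, and limma voom with sample quality weights called 4 (3.99% of all genes). The median log2 fold change of the 38 subunit genes was 0.29 with imatinib, beside −0.02 for all 14314 genes. For nilotinib 10 and 30 mg/kg the medians were 0.03 and 0.14 (all genes 0.01 and 0.03), then 0.13 with ponatinib 10 mg/kg (−0.01) and 0.07 with L-NAME (0.02). The share of all counted reads that fell on the 39 genes averaged 0.271% in control mice, 0.308% with imatinib, 0.292% and 0.310% with nilotinib 10 and 30 mg/kg, 0.259% and 0.277% with ponatinib 3 and 10 mg/kg, and 0.289% with L-NAME. All 6 comparisons share the same 8 control mice. In RNA from whole liver, fewer cells of a type and less RNA per cell cannot be told apart.

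By place in the particle, 8 of the 14 constitutive 20S genes rose with imatinib, 5 with nilotinib 30 mg/kg, 6 with ponatinib 10 mg/kg, 6 with L-NAME and 0 with nilotinib 10 mg/kg, where 8 were higher at an unadjusted p below 0.05 (6.23% of all genes). In these 5 groups edgeR called 0 of the 14 lower, and 0 were lower at an unadjusted p below 0.05. Of the 7 constitutive β subunits, 6, 4, 5 and 4 rose with imatinib, nilotinib 30 mg/kg, ponatinib 10 mg/kg and L-NAME. Of the 17 genes of the 19S particle, imatinib raised 4 and lowered 0. The other groups had 1 higher and 1 lower with each dose of nilotinib, 1 higher and 3 lower with ponatinib 10 mg/kg, and 1 higher and 2 lower with L-NAME. The difference between core and cap was not itself tested.

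**Figure D2:**
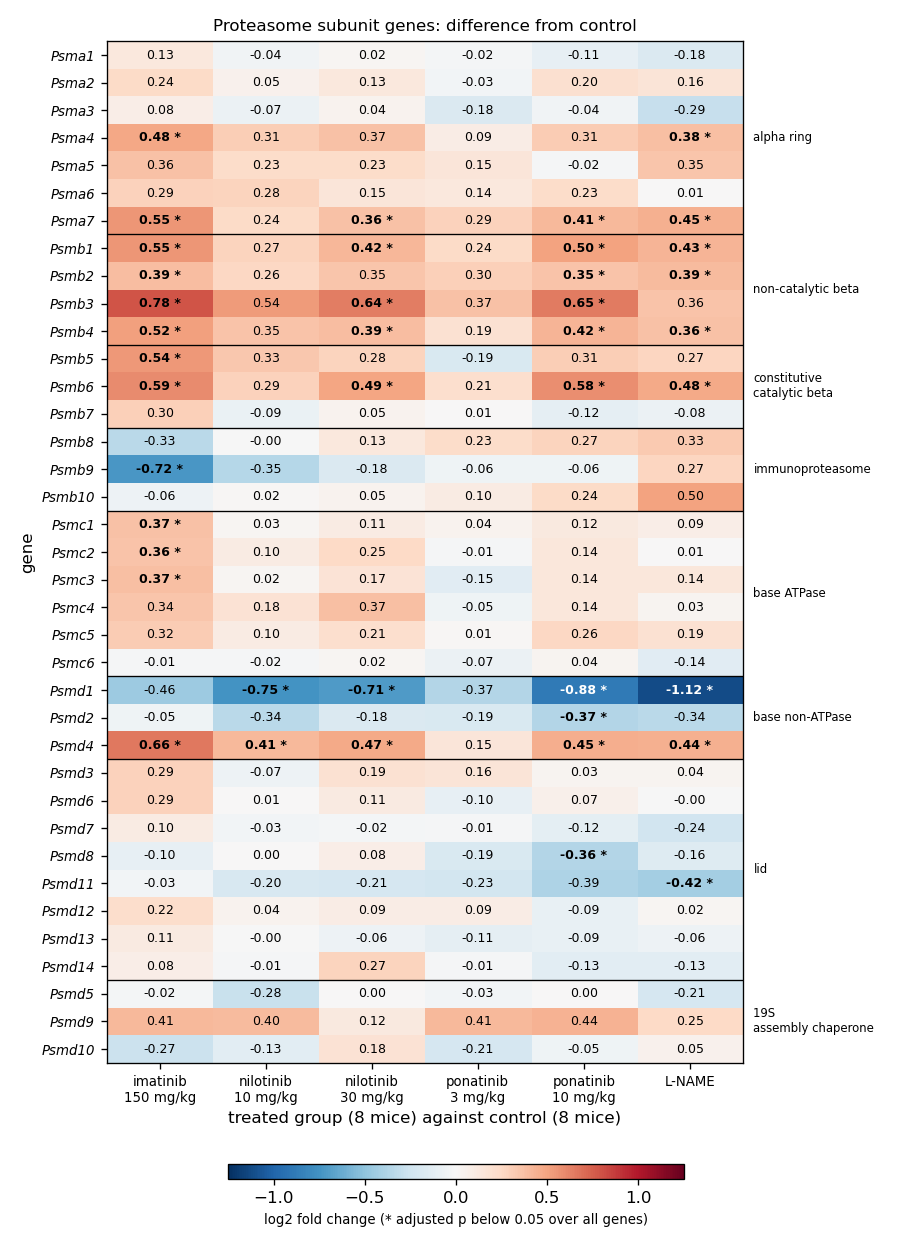
Log2 fold change against control of 37 proteasome subunit genes (rows, by role) in 6 treated groups (columns, 8 mice each against 8 control mice), with bold print and an asterisk where the adjusted p over all genes was below 0.05. The β subunits Psmb1 to Psmb6 are mostly positive, Psmb8 and Psmb9 are negative with imatinib, and Psmd1 is negative in every column, down to −1.12 with L-NAME.

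Psma7, an α subunit, was the most regular member of the outer ring. Psma7 ranged from 74.8 to 91.0 CPM (median 84.9) in control mice, from 99.5 to 139.6 (median 125) with imatinib, from 89.5 to 120.1 (median 96.2) with nilotinib 10 mg/kg and from 98.1 to 119.8 (median 109) with nilotinib 30 mg/kg. Its range was 72.8 to 119.7 CPM (median 107) with ponatinib 3 mg/kg, 88.2 to 122 (median 115) with ponatinib 10 mg/kg and 99.7 to 143 (median 112) with L-NAME. All 8 mice lay above every control mouse with imatinib, nilotinib 30 mg/kg and L-NAME, and 7 of 8 with each dose of ponatinib. Psma7 rose with imatinib (log2 fold change 0.55 ± 0.09 SE, adjusted p = 3.84e-05, edgeR here and throughout), nilotinib 30 mg/kg (0.36 ± 0.09, adjusted p = 0.00918), ponatinib 10 mg/kg (0.41 ± 0.09, adjusted p = 0.00152) and L-NAME (0.45 ± 0.09, adjusted p = 0.000638). With nilotinib 10 mg/kg and ponatinib 3 mg/kg the differences of 0.24 and 0.29 were not called (adjusted p = 0.176 and 0.234). Of the other α subunits only Psma4 was called, with imatinib (0.48 ± 0.12, adjusted p = 0.00762) and L-NAME (0.38 ± 0.12, adjusted p = 0.0347), the latter lost without control mouse 46 (adjusted p = 0.0897). Psma6 had 0.29 ± 0.10 with imatinib (adjusted p = 0.0581). Psma1, Psma2, Psma3 and Psma5 had log2 fold changes between −0.29 and 0.36 over the 6 groups, none of them called.

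The β subunits without an active site shape the inner rings, and all 4 of them rose with imatinib. Psmb1 ranged from 81.4 to 109 CPM (median 96.3) in control mice, from 115 to 172 (median 134) with imatinib, from 95.4 to 131 (median 123) with nilotinib 10 mg/kg and from 106 to 156 (median 127) with nilotinib 30 mg/kg. Its range was 89.6 to 136 CPM (median 109.5) with ponatinib 3 mg/kg, 109 to 155 (median 137) with ponatinib 10 mg/kg and 106 to 155 (median 127) with L-NAME. All 8 mice were above every control mouse with imatinib and with ponatinib 10 mg/kg, 7 with nilotinib 30 mg/kg and 6 with L-NAME. Psmb1 rose by 0.55 ± 0.10 with imatinib (adjusted p = 0.000266), 0.42 ± 0.10 with nilotinib 30 mg/kg (adjusted p = 0.00797), 0.50 ± 0.10 with ponatinib 10 mg/kg (adjusted p = 0.000593) and 0.43 ± 0.10 with L-NAME (adjusted p = 0.00325). Psmb4 was called in the same 4 groups, with log2 fold changes between 0.36 and 0.52. Its calls with nilotinib 30 mg/kg and L-NAME were lost with the exon length trend removed (edgeR, adjusted p = 0.134 and 0.156). Psmb3 was called with imatinib (0.78 ± 0.18, adjusted p = 0.00296), nilotinib 30 mg/kg (0.64) and ponatinib 10 mg/kg (0.65), and Psmb2 with imatinib, ponatinib 10 mg/kg and L-NAME (0.35 to 0.39). The calls of Psmb2 were lost in all 3 groups without control mouse 33, at 0.34 to 0.37 (adjusted p from 0.0526 to 0.0806), and with ponatinib 10 mg/kg Psmb2 was called in 5 of 14 alternatives.

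Of the 3 constitutive active-site subunits, Psmb6 rose in 4 groups, Psmb5 in 1 and Psmb7 in 0. Psmb6 ranged from 76.1 to 116 CPM (median 89.9) in control mice, from 91.0 to 166 (median 140.5) with imatinib, from 95.3 to 124 (median 116) with nilotinib 10 mg/kg and from 88.6 to 156 (median 138) with nilotinib 30 mg/kg. Its range was 92.7 to 119 CPM (median 109) with ponatinib 3 mg/kg, 57.3 to 172 (median 148) with ponatinib 10 mg/kg and 108 to 146 (median 126) with L-NAME. In the group given ponatinib 10 mg/kg, 7 mice lay above every control mouse and mouse 18 lay below every one, at 57.3 CPM. Psmb6 rose with imatinib (0.59 ± 0.13, adjusted p = 0.00131), nilotinib 30 mg/kg (0.49 ± 0.13, adjusted p = 0.0111), ponatinib 10 mg/kg (0.58 ± 0.13, adjusted p = 0.0011) and L-NAME (0.48 ± 0.13, adjusted p = 0.00711). With nilotinib 10 mg/kg it had 0.29 ± 0.13 (adjusted p = 0.258), and with ponatinib 3 mg/kg 0.21 ± 0.13 (adjusted p = 0.604). The calls with nilotinib 30 mg/kg and L-NAME were lost with the exon length trend removed and with the share of reads outside genes as a covariate (adjusted p up to 0.217 and 0.234), and that with ponatinib 10 mg/kg with the covariate (adjusted p = 0.109).

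Psmb5 ranged from 19.3 to 37.2 CPM (median 29.3) in control mice, from 26.3 to 53.5 (median 46.2) with imatinib, from 26.5 to 51.9 (median 34.2) with nilotinib 10 mg/kg and from 21.4 to 44.9 (median 35.5) with nilotinib 30 mg/kg. Its range was 13.8 to 30.6 CPM (median 27.3) with ponatinib 3 mg/kg, 19.3 to 48.1 (median 38.0) with ponatinib 10 mg/kg and 24.6 to 44.5 (median 34.7) with L-NAME. The groups overlapped, and 5 mice given imatinib exceeded every control mouse. Psmb5 rose only with imatinib among the 6 groups (0.54 ± 0.17, adjusted p = 0.0282). This call was lost without control mouse 33, and over all 14 alternatives the adjusted p ran from 0.000221 to 0.254. Psmb7 ranged from 76.8 to 108 CPM (median 90.0) in control mice, from 99.4 to 134 (median 109.7) with imatinib, from 60.7 to 98.4 (median 89.7) with nilotinib 10 mg/kg and from 69.0 to 108 (median 95.8) with nilotinib 30 mg/kg. Its range was 75.8 to 118 CPM (median 89.1) with ponatinib 3 mg/kg, 71.9 to 96.8 (median 84.0) with ponatinib 10 mg/kg and 72.0 to 103 (median 84.4) with L-NAME. With imatinib 5 mice lay above every control mouse, and the difference of 0.30 ± 0.10 just missed the threshold (adjusted p = 0.0516). In the other groups Psmb7 differed from control by −0.12 to 0.05, with adjusted p-values from 0.521 to 0.994.

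**Figure D3:**
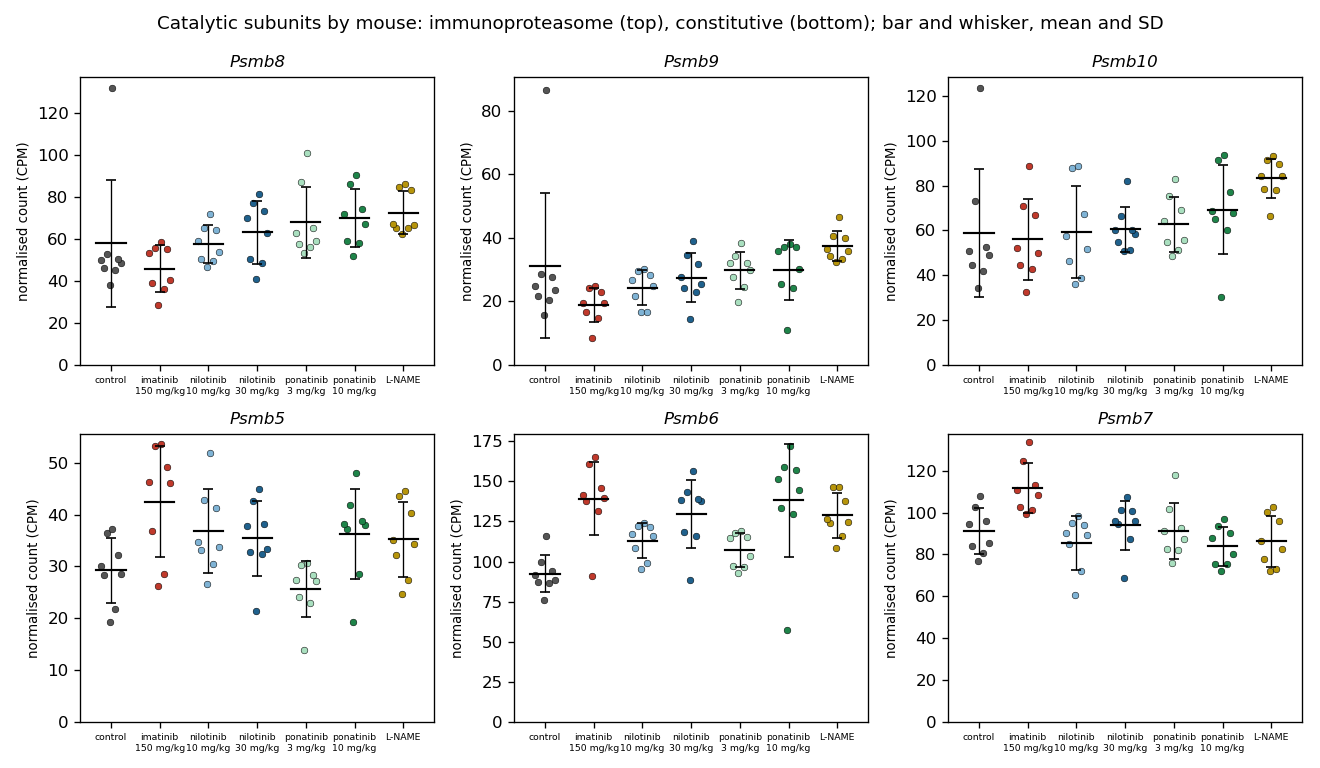
Normalised counts (CPM) of the immunoproteasome subunits Psmb8, Psmb9 and Psmb10 and of their constitutive counterparts Psmb5, Psmb6 and Psmb7 in each of 56 mice, with the mean and SD of each group of 8. A single control mouse lies far above the rest in all 3 upper panels, at 132, 86.6 and 124 CPM, and the lowest ponatinib 10 mg/kg mouse in the Psmb6 panel lies at 57.3 CPM.

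Among the immunoproteasome subunits a single call was made with all 8 control mice, Psmb9 lower with imatinib, and it rested on control mouse 33. Without this mouse all 3 genes were instead called higher with L-NAME, and Psmb8 with ponatinib 10 mg/kg. Psmb8 ranged from 37.9 to 132 CPM (median 49.4) in control mice, from 28.5 to 58.6 (median 46.9) with imatinib, from 46.8 to 71.7 (median 56.5) with nilotinib 10 mg/kg and from 40.8 to 81.6 (median 66.3) with nilotinib 30 mg/kg. Its range was 53.2 to 101 CPM (median 61.1) with ponatinib 3 mg/kg, 51.7 to 90.6 (median 69.5) with ponatinib 10 mg/kg and 62.3 to 86.1 (median 66.8) with L-NAME. Apart from control mouse 33, at 132 CPM, the control mice lay between 37.9 and 52.9 CPM, and no group lay wholly outside them except L-NAME, whose lowest mouse was at 62.3 CPM, and ponatinib 3 mg/kg, whose lowest was at 53.2 CPM. No difference from control was called, from −0.33 ± 0.17 with imatinib (adjusted p = 0.239) to 0.33 ± 0.17 with L-NAME (adjusted p = 0.239). Without control mouse 33 Psmb8 was higher with L-NAME (0.62 ± 0.15, adjusted p = 0.00409) and ponatinib 10 mg/kg (0.57 ± 0.15, adjusted p = 0.00772), and its difference with imatinib was −0.04 ± 0.15 (adjusted p = 0.919). Psmb9 ranged from 15.7 to 86.6 CPM (median 24.2) in control mice, from 8.40 to 24.6 (median 19.5) with imatinib, from 16.5 to 30.3 (median 25.9) with nilotinib 10 mg/kg and from 14.3 to 38.8 (median 26.4) with nilotinib 30 mg/kg. Its range was 19.6 to 38.3 CPM (median 30.9) with ponatinib 3 mg/kg, 10.9 to 38.0 (median 33.0) with ponatinib 10 mg/kg and 32.3 to 46.4 (median 36.1) with L-NAME. All 8 mice given L-NAME lay above the 7 other control mice, whose highest value was 28.7 CPM. Psmb9 was called lower with imatinib (−0.72 ± 0.23, adjusted p = 0.0332). Without control mouse 33 the value was −0.30 ± 0.19 and the adjusted p 0.394, and the call was also lost with limma voom, with sample quality weights and with only the 16 mice compared. With L-NAME Psmb9 had 0.69 ± 0.19 without mouse 33 (adjusted p = 0.0139), beside 0.27 with it.

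Psmb10 ranged from 34.1 to 124 CPM (median 49.9) in control mice, from 32.5 to 88.5 (median 51.0) with imatinib, from 36.1 to 88.7 (median 54.7) with nilotinib 10 mg/kg and from 50.7 to 82.0 (median 59.3) with nilotinib 30 mg/kg. Its range was 48.5 to 82.8 CPM (median 59.9) with ponatinib 3 mg/kg, 30.2 to 93.7 (median 68.2) with ponatinib 10 mg/kg and 66.4 to 93.4 (median 84.2) with L-NAME. With L-NAME the range lay inside that of the control mice only because of control mouse 33, since the other 7 control mice reached 73.2 CPM. The difference was 0.50 ± 0.20 (adjusted p = 0.0837) with L-NAME and −0.06 to 0.24 in the other groups, none of them called. Psmb10 was called higher with L-NAME without this mouse (0.75 ± 0.18, adjusted p = 0.00464), and the other groups had 0.19 to 0.49, none of them called.

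Control mouse 33 lay above the other 7 control mice in 8 of 12 genes of MHC class I antigen presentation and its interferon control, and within their range in the other 4. Beside Psmb8 (132 CPM against a median of 48.8), Psmb9 (86.6 against 23.6) and Psmb10 (124 against 49.1), the peptide transporter gene Tap1 was 4.35 times the median of the others. Tap2, Nlrc5, Irf1 and Tapbp stood at 2.13, 2.29, 1.91 and 1.69 times. The class I genes B2m, H2-K1 and H2-D1 were at 1.17, 1.15 and 1.14 times, of which B2m and H2-K1 lay within the range of the others. The leukocyte marker Ptprc was at 31.2 CPM against a median of 30.4 and Adgre1 of Kupffer cells at 33.0 against 55.9, both within the range of the other control mice, as were all 5 markers of Kupffer cells and macrophages. Of the 6 markers of T and NK cells, Cd3g (3.38 CPM against at most 1.70) and Cd8a (1.21 against at most 0.852) lay above every other control mouse and Cd4 lay below. The part of these cells in the values of mouse 33 was not tested.

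The balance between each immunoproteasome subunit and the constitutive subunit it replaces was therefore taken within each mouse. It is the log2 ratio of their counts with 0.5 added, which needs no library size but does not take out the trend with exon length given below. The exons hold 3381 and 899 bases for Psmb8 and Psmb5, 3660 and 1872 for Psmb9 and Psmb6, and 1705 and 3421 for Psmb10 and Psmb7. The ratios were not tested with that trend removed. Two-sided exact permutation tests were run on 3 pairs in 6 groups and adjusted over the 18. The ratio of Psmb8 to Psmb5 ran from 0.30 to 2.59 (median 0.69) in control mice and from −0.20 to 0.46 (median 0.12) with imatinib. Of the 8 mice given imatinib, 7 lay below every control mouse, and the mean differed by −0.79 (exact p = 0.000777, adjusted 0.00699). For Psmb9 to Psmb6 the control mice ran from −2.54 to 0.004 (median −1.91) and the mice given imatinib from −4.06 to −2.50 (median −2.84). Here too 7 of 8 lay below every control mouse, with a mean difference of −1.17 (exact p = 0.000311, adjusted 0.00559). Without control mouse 33 both differences remained, at −0.55 (exact permutation test, adjusted p = 0.00746) and −0.91 (adjusted p = 0.0042). In the edgeR fit without this mouse Psmb8 was near the control level, as given above, and Psmb5 was at 0.49, so the first difference lay mostly in Psmb5. The sequence of Psmb5 is shared in large part with pseudogenes, as given above, so its values are uncertain. Psmb9 was at −0.30 in the same fit without mouse 33 and not called, and Psmb6 was at 0.59 with all control mice. The remaining pair, Psmb10 to Psmb7, did not reach the threshold with imatinib (−0.32, exact permutation test, adjusted p = 0.592).

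In the other groups no ratio passed the adjustment with all 8 control mice. The largest positive difference was that of Psmb10 to Psmb7 with L-NAME, 0.69 (exact permutation test, adjusted p = 0.0942), followed by Psmb8 to Psmb5 with ponatinib 3 mg/kg, 0.50 (adjusted p = 0.341). Without control mouse 33 these became 0.89, with all 8 mice above the 7 control mice (exact permutation test, adjusted p = 0.0028), and 0.74, with 3 mice above them (adjusted p = 0.0112). With nilotinib, at either dose, the 3 ratios differed from control by −0.51 to 0.15 (exact permutation test, adjusted p from 0.341 to 0.916), and with ponatinib 10 mg/kg by −0.47 to 0.40 (adjusted p from 0.302 to 0.916). Without control mouse 33 these ranges were −0.26 to 0.35 and −0.22 to 0.60, still with no ratio past the adjustment. The highest of them, Psmb10 to Psmb7 with ponatinib 10 mg/kg, had 6 of 8 mice above the 7 control mice (exact permutation test, p = 0.0357, adjusted 0.118).

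In the base of the 19S particle, Psmd4 and Psmd1 moved in opposite directions. Psmd4 is a receptor that binds ubiquitin chains, and it was called in 5 of the 6 groups. Psmd4 ranged from 81.6 to 100.5 CPM (median 90.3) in control mice, from 114 to 177 (median 147) with imatinib, from 95.2 to 145 (median 119) with nilotinib 10 mg/kg and from 95.4 to 155 (median 127) with nilotinib 30 mg/kg. Its range was 80.1 to 119 CPM (median 102) with ponatinib 3 mg/kg, 107 to 144 (median 123) with ponatinib 10 mg/kg and 97.7 to 167 (median 118) with L-NAME. All 8 mice lay above every control mouse with imatinib and with ponatinib 10 mg/kg, and 7 of 8 with both doses of nilotinib and with L-NAME. Psmd4 rose by 0.66 ± 0.10 with imatinib (adjusted p = 1.85e-05), 0.41 ± 0.10 with nilotinib 10 mg/kg (adjusted p = 0.0295), 0.47 ± 0.10 with nilotinib 30 mg/kg (adjusted p = 0.00321), 0.45 ± 0.10 with ponatinib 10 mg/kg (adjusted p = 0.00182) and 0.44 ± 0.10 with L-NAME (adjusted p = 0.00249). With ponatinib 3 mg/kg it had 0.15 ± 0.10 (adjusted p = 0.684). The call with nilotinib 10 mg/kg held in 9 of 14 alternatives and was lost without control mouse 33 (adjusted p = 0.0611), without control mouse 46 (adjusted p = 0.0546), without the 3 deepest libraries, with no filter on low counts and with the share of reads outside genes as a covariate.

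Psmd1, the scaffold on which the ATPase ring and the lid meet, was the subunit with the largest decrease. Psmd1 ranged from 96.4 to 148 CPM (median 109) in control mice, from 55.4 to 121 (median 79.1) with imatinib, from 45.4 to 84.1 (median 68.0) with nilotinib 10 mg/kg and from 49.2 to 92.8 (median 67.1) with nilotinib 30 mg/kg. Its range was 71.1 to 101 CPM (median 87.7) with ponatinib 3 mg/kg, 31.8 to 100.1 (median 58.5) with ponatinib 10 mg/kg and 34.1 to 76.2 (median 46.9) with L-NAME. All 8 mice of both nilotinib groups and of the L-NAME group lay below every control mouse, as did 7 with ponatinib 10 mg/kg and 6 each with imatinib and ponatinib 3 mg/kg. Psmd1 fell with L-NAME (−1.12 ± 0.17, adjusted p = 1.88e-05), ponatinib 10 mg/kg (−0.88 ± 0.16, adjusted p = 0.00019), nilotinib 10 mg/kg (−0.75 ± 0.16, adjusted p = 0.011) and nilotinib 30 mg/kg (−0.71 ± 0.16, adjusted p = 0.00502). With imatinib the difference was −0.46 ± 0.16 (adjusted p = 0.0585, and 0.042 without mouse 18 of ponatinib 10 mg/kg) and with ponatinib 3 mg/kg −0.37 ± 0.16 (adjusted p = 0.42). The exons of Psmd1 overlap Gm21972 and Htr2b over 7.61% of their bases, and the library kit does not mark strand.

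Psmd2, the other large scaffold of the base, fell in 1 group. Psmd2 ranged from 113 to 159.5 CPM (median 142) in control mice, from 102 to 159 (median 140.2) with imatinib, from 83.6 to 134 (median 112) with nilotinib 10 mg/kg and from 108 to 146 (median 124) with nilotinib 30 mg/kg. Its range was 83.2 to 158 CPM (median 125) with ponatinib 3 mg/kg, 83.1 to 171 (median 101) with ponatinib 10 mg/kg and 84.1 to 137 (median 113) with L-NAME. The highest mouse given ponatinib 10 mg/kg, mouse 18, exceeded every control mouse at 171 CPM, and 6 of the 8 lay below every one. The fall with ponatinib 10 mg/kg (−0.37 ± 0.12, adjusted p = 0.0291) was called in 8 of 14 alternatives, with adjusted p-values from 0.000312 to 0.622, and was lost without control mouse 46 (adjusted p = 0.0533). With L-NAME the difference was −0.34 ± 0.12 (adjusted p = 0.051), and it was called without control mouse 33 (adjusted p = 0.049) or mouse 18 of ponatinib 10 mg/kg (adjusted p = 0.0277). Among the ATPases, Psmc1, Psmc2 and Psmc3 rose with imatinib, by 0.37 ± 0.11 (adjusted p = 0.0208), 0.36 ± 0.12 (adjusted p = 0.0378) and 0.37 ± 0.11 (adjusted p = 0.0186), and Psmc4 and Psmc5 had 0.34 and 0.32 there (adjusted p = 0.0778 and 0.0734). The call of Psmc2 was lost without control mouse 33 (adjusted p = 0.0915) and without control mouse 46 (adjusted p = 0.057). Psmc6 lay between −0.14 and 0.04 in all 6 groups. No ATPase was called in the other 5 groups, where the highest value was 0.37 ± 0.13 for Psmc4 with nilotinib 30 mg/kg (adjusted p = 0.0726).

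**Figure D4:**
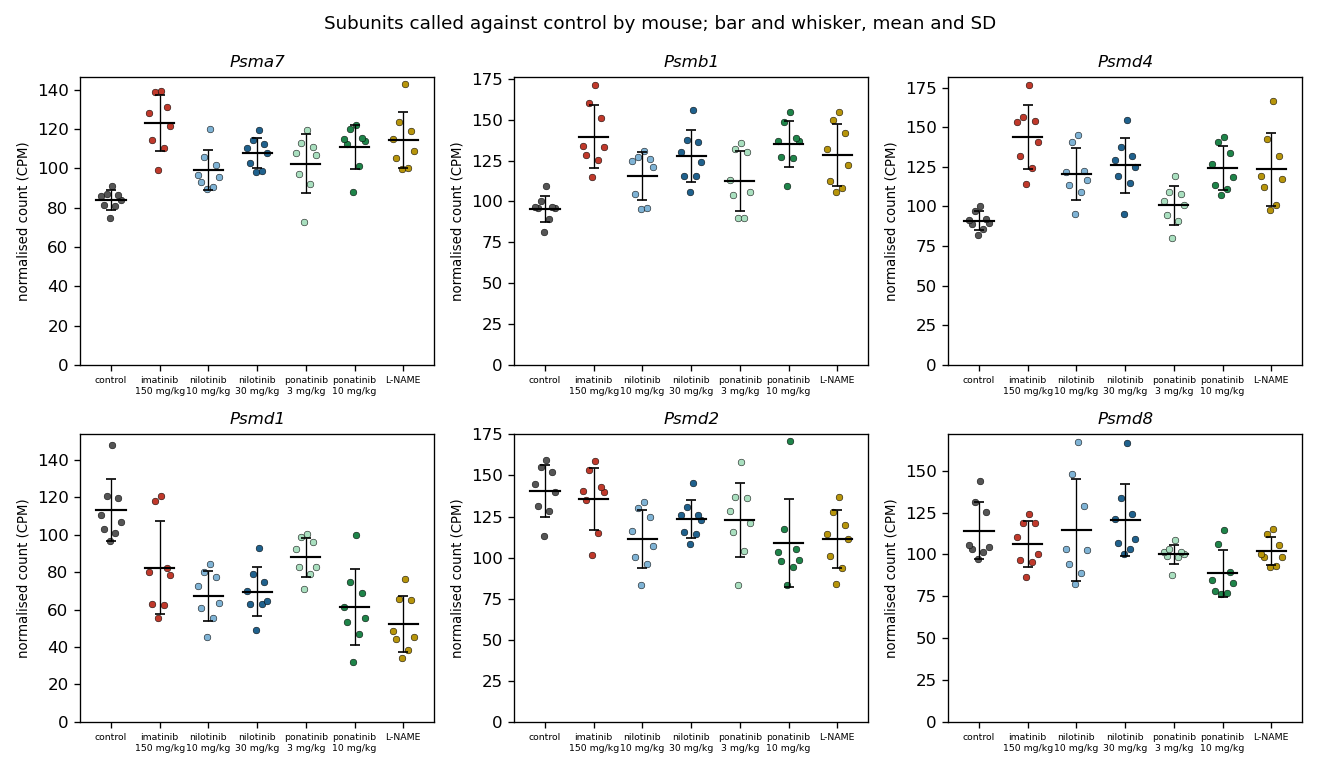
Normalised counts (CPM) of Psma7, Psmb1 and Psmd4 (upper panels) and of Psmd1, Psmd2 and Psmd8 (lower panels) in each of 56 mice, with the mean and SD of each group of 8. All 8 imatinib mice lie above every control mouse in the upper panels, while the ponatinib 3 mg/kg mice overlap the control mice there, and the median of Psmd1 is 109 CPM in control and 46.9 CPM in L-NAME mice.

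The lid changed in 2 of its 8 genes, each lower in 1 group. Psmd8 ranged from 97.5 to 144 CPM (median 105) in control mice, from 86.5 to 124 (median 105) with imatinib, from 82.3 to 167 (median 103) with nilotinib 10 mg/kg and from 100.5 to 166 (median 115) with nilotinib 30 mg/kg. Its range was 88.0 to 109 CPM (median 101) with ponatinib 3 mg/kg, 76.2 to 114 (median 83.9) with ponatinib 10 mg/kg and 92.7 to 115 (median 99.4) with L-NAME. Of the mice given ponatinib 10 mg/kg, 6 lay below every control mouse, and the fall was −0.36 ± 0.12 (adjusted p = 0.027). This call held in 12 of 14 alternatives. It was lost without the 3 deepest libraries and with the share of reads outside genes as a covariate (adjusted p up to 0.403). Psmd11 ranged from 60.9 to 89.8 CPM (median 70.9) in control mice, from 55.2 to 94.3 (median 71.5) with imatinib, from 51.7 to 91.0 (median 60.1) with nilotinib 10 mg/kg and from 45.9 to 93.3 (median 62.6) with nilotinib 30 mg/kg. Its range was 44.8 to 90.1 CPM (median 61.4) with ponatinib 3 mg/kg, 46.7 to 73.7 (median 55.1) with ponatinib 10 mg/kg and 46.1 to 78.0 (median 50.9) with L-NAME. With L-NAME 6 mice lay below every control mouse and 1 above the control mean, and the fall was −0.42 ± 0.14 (adjusted p = 0.0412), called in 7 of 14 alternatives and lost without control mouse 46 or the deepest library. The near-equal difference with ponatinib 10 mg/kg, −0.39 ± 0.14, was not called (adjusted p = 0.063, and 0.0338 without mouse 18 of that group). The catalytic subunit of the lid, the deubiquitinase Psmd14, had −0.13 to 0.27, its partner Psmd7 −0.24 to 0.10, and Psmd3, Psmd6, Psmd12 and Psmd13 −0.11 to 0.29, none of them called. The assembly chaperones Psmd5, Psmd9 and Psmd10, which are not part of the finished particle, were called in 0 groups, with the largest value at 0.44 ± 0.16 for Psmd9 with ponatinib 10 mg/kg (adjusted p = 0.0551, and 0.0472 without mouse 18). At an unadjusted p below 0.05, 1 of the 3 was higher with imatinib, nilotinib 10 mg/kg and each dose of ponatinib, beside 4.81 to 13.2% of all genes. Psma8 had 1.02 to 1.64 with SEs of 0.94 to 0.95, on counts of 0 to 84 per mouse, counts too low to compare.

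The treated groups were also set against each other, in 9 comparisons of which 4 were chosen after the data were seen. Ponatinib and nilotinib share a dose of 10 mg/kg in 1 drug gavage per day. By the paper's pharmacokinetics, plasma exposure at this dose was higher with nilotinib, so an equal dose was not an equal exposure. At this dose edgeR called 0 of 38 subunit genes, where 2.06% of all genes were called, with 2 higher and 1 lower with ponatinib at an unadjusted p below 0.05 (15.3% of all genes), 1 called by DESeq2 (3.72%) and 0 by limma voom. The smallest p was that of Psmd8 (−0.37, 95% interval −0.60 to −0.14, adjusted p = 0.0708). Psmb6 differed by 0.29 (0.04 to 0.54, adjusted p = 0.231, and by 0.41 with 0.0207 without mouse 18), Psmd4 by 0.05 (−0.16 to 0.25, adjusted p = 0.886) and Psmd1 by −0.13 (−0.45 to 0.19, adjusted p = 0.777).

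Within a compound, edgeR called 0 of 38 between ponatinib 10 and 3 mg/kg (1.39% of all genes), with 7 higher and 1 lower at an unadjusted p below 0.05 (7.66% and 6.71% of all genes). DESeq2 called 3 (3.08%), limma voom 0, and edgeR 3 (2 higher, 1 lower, where 4.55% of all genes were called) without mouse 18 of the higher dose. The largest differences there were Psmb5 (0.50, interval 0.17 to 0.83, adjusted p = 0.12) and Psmd1 (−0.51, −0.83 to −0.19, adjusted p = 0.0963). Between nilotinib 30 and 10 mg/kg 0 were called (0.0% of all genes), by DESeq2 and limma voom as well, with 1 higher at an unadjusted p below 0.05 (5.67%).

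The remaining pairs differ in dose, and those with imatinib also in the number of gavages that held drug, so compound and dose cannot be told apart in them. Psmb7 was lower with ponatinib 10 mg/kg than with imatinib 150 mg/kg (−0.41 ± 0.10, adjusted p = 0.0246), the 1 subunit gene called there (1.08% of all genes). Psmb8 was 0.61 ± 0.17 higher in the same comparison without passing (adjusted p = 0.0716), and passed without control mouse 33 (adjusted p = 0.015) or mouse 18 (adjusted p = 0.0371). Psmd8 was lower with ponatinib 10 mg/kg than with nilotinib 30 mg/kg (−0.44 ± 0.12, adjusted p = 0.0274), again the 1 gene called (1.88%). Between imatinib and nilotinib 30 mg/kg 0 were called (3.59%), with 3 higher and 2 lower at an unadjusted p below 0.05 (15.9%), 0 by DESeq2 and 0 by limma voom.

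Against L-NAME, imatinib had 4 subunit genes called (3.12% of all genes). Psmb7 (0.38 ± 0.10, adjusted p = 0.0276) and Psmd1 (0.66 ± 0.16, adjusted p = 0.0119) were higher with imatinib, and Psmb8 (−0.66 ± 0.17, adjusted p = 0.0206) and Psmb9 (−0.99 ± 0.23, adjusted p = 0.00656) were lower. Without the deepest library, which is a mouse given L-NAME, Psmd1 and Psmb9 were called, where 2.06% of all genes were. For nilotinib 30 mg/kg against L-NAME 0 were called (0.00699%), with 5 higher and 1 lower at an unadjusted p below 0.05 (6.03%), and for ponatinib 10 mg/kg against L-NAME 0 (0.419%), with 1 higher (8.13%). DESeq2 and limma voom also gave 0 in these 2 comparisons.

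Genes that act with the proteasome were followed in lists set by symbol. Of 15 assembly factors, activators and associated proteins, 5 rose with imatinib, where 5.69% of all genes were called higher. The 3 with the smallest p were Pomp, the maturation factor of the 20S core (0.53 ± 0.11, adjusted p = 0.000766), Sem1, the smallest lid protein (0.76 ± 0.16, adjusted p = 0.00131), and Adrm1, a ubiquitin receptor of the base (0.79 ± 0.19, adjusted p = 0.00333). Nilotinib 10 mg/kg raised Sem1 (0.68 ± 0.16, adjusted p = 0.0186, a call lost without control mouse 46), and nilotinib 30 mg/kg raised 4 of 15 (0.468% and 2.34% of all genes were higher), 3 of them called without control mouse 33. With ponatinib 10 mg/kg 4 rose and 2 fell, beside 7.24% and 5.87% of all genes, led by Sem1 (0.99 ± 0.16, adjusted p = 4.47e-05) and the assembly chaperone Psmg3 (1.29 ± 0.25, adjusted p = 0.000255). The 2 that fell with ponatinib 10 mg/kg, Psme3 (−0.57 ± 0.13, adjusted p = 0.00251) and Psme4 (−0.49 ± 0.12, adjusted p = 0.00404), encode alternative caps of the core. L-NAME had 3 higher, Sem1 (0.98 ± 0.16, adjusted p = 5.89e-05) among them, and the same 2 caps lower, beside 5.55% and 6.24% of all genes, with 2 higher without control mouse 33. The falls of both caps, with ponatinib 10 mg/kg and with L-NAME, were lost with the share of reads outside genes as a covariate. That of Psme4 with L-NAME was called in 11 of 14 alternatives. It was also lost with the exon length trend removed and without the 3 deepest libraries (edgeR, adjusted p up to 0.585). With ponatinib 3 mg/kg 0 of 15 were called.

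The next list held 8 tested genes of the transcriptional control of proteasome genes and its processing, not all of them transcription factors. Of these, Nfe2l1 fell with nilotinib 10 mg/kg (−0.37 ± 0.10, adjusted p = 0.0379, called in 7 of 14 alternatives and lost without control mouse 46), nilotinib 30 mg/kg (−0.37 ± 0.10, adjusted p = 0.0154), ponatinib 10 mg/kg (−0.37 ± 0.10, adjusted p = 0.00758) and L-NAME (−0.45 ± 0.10, adjusted p = 0.00126). The calls with nilotinib 30 mg/kg and ponatinib 10 mg/kg were lost with the exon length trend removed and with the share of reads outside genes as a covariate (adjusted p up to 0.203 and 0.158). That with L-NAME was lost with the covariate (adjusted p = 0.0694). The other 7 were not called in any group. Of 6 ubiquitin genes, Uba1, the activating enzyme that starts the pathway, fell with imatinib (−0.41 ± 0.12, adjusted p = 0.0163), both doses of nilotinib (−0.60 and −0.48), ponatinib 10 mg/kg (−0.50) and L-NAME (−0.61 ± 0.12, adjusted p = 0.000353). The polyubiquitin gene Ubb rose with imatinib, nilotinib 30 mg/kg and L-NAME (0.53, 0.53 and 0.60).

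Of 12 genes of MHC class I antigen presentation and its interferon control, 6 fell and 0 rose with imatinib, where 4.58% of all genes were called lower. The 3 with the smallest p were Erap1, which trims peptides (−0.71 ± 0.17, adjusted p = 0.00312), Tapbp, which loads them (−0.47 ± 0.11, adjusted p = 0.00345), and Tap1, which transports them (−0.79 ± 0.20, adjusted p = 0.00716). Without control mouse 33, 5 fell, Erap1 and Tapbp among them, and Tap1 was at −0.29 ± 0.14 (adjusted p = 0.2). Of all genes 8.06% were then called in either direction. Tap1 and Psmb9 are neighbours whose exons overlap over 5.79% of the bases of Psmb9. Nilotinib 30 mg/kg and L-NAME had 1 higher (B2m, 0.30 ± 0.08 and 0.35 ± 0.08) and 1 lower (Erap1, −0.67 ± 0.17 and −0.69 ± 0.16) of the 12, ponatinib 10 mg/kg 1 higher and 2 lower, and the low doses 0. Of all genes 2.34% were called higher and 3.43% lower with nilotinib 30 mg/kg, 5.55% and 6.24% with L-NAME, and 7.24% and 5.87% with ponatinib 10 mg/kg. With control mouse 33 left out, the numbers higher were 2 with nilotinib 30 mg/kg, 4 with L-NAME and 2 with ponatinib 10 mg/kg, and those lower were 1, 1 and 2. Of all genes 4.52%, 10.5% and 10.9% were then called in either direction, in the same order. The rise of B2m with nilotinib 30 mg/kg was lost without control mouse 46. With nilotinib 30 mg/kg, L-NAME and ponatinib 10 mg/kg, B2m was not called with the exon length trend removed. The same held with the share of reads outside genes as a covariate. Over 14 alternatives its log2 fold change went down to 0.12, 0.12 and 0.15 in these groups (edgeR, adjusted p up to 0.58, 0.491 and 0.332). The falls of Erap1 in these groups were also lost with the covariate.

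Markers of liver cells moved beside these genes. Of the 5 hepatocyte markers, Tat was called lower with imatinib, both doses of nilotinib and L-NAME (−0.62, −0.73, −0.87 and −0.78). Apoa1 rose with imatinib, nilotinib 30 mg/kg, ponatinib 10 mg/kg and L-NAME, and Ttr with imatinib and ponatinib 10 mg/kg. The calls of Apoa1 with nilotinib 30 mg/kg and Ttr with imatinib were lost without control mouse 33 or 46. Alb and Cyp2e1 were not called. The shares of all genes called are given above. With imatinib 4 of 5 markers of Kupffer cells and macrophages fell, Lyz2 by −1.43 ± 0.27, Adgre1 by −1.35 ± 0.36, Cd68 by −0.80 ± 0.26 and Csf1r by −0.76 ± 0.25 (adjusted p from 0.000359 to 0.0386), while Clec4f was not called. The call of Csf1r was lost without control mouse 33 (adjusted p = 0.0511), and those of Cd68 and Csf1r without control mouse 46. The summed level of the 5 was 452 to 857 CPM (median 652) in control mice and 279 to 606 CPM (median 401) with imatinib. The 6 markers of T and NK cells, of which Cd3e, Cd3g, Cd8a, Cd4 and Nkg7 were at 0 in 7 to 20 of the 56 mice, summed to 22.7 to 46.8 CPM in control mice and 14.8 to 27.2 CPM with imatinib. Most of this sum is Ptprc, which all leukocytes carry and which was called lower (−0.98 ± 0.25, adjusted p = 0.00762), while the other 5 summed to 2.46 to 7.64 CPM (median 5.51) in control mice and 1.27 to 6.62 CPM (median 5.00) with imatinib and were not called. Immune cells carry much of the immunoproteasome in many tissues, and the part of these cells in the Psmb9 values and the ratios with imatinib was not tested. With ponatinib 10 mg/kg Cd68 was lower and Clec4f higher, and with nilotinib 30 mg/kg and L-NAME Clec4f was higher, each the only calls in the list. The call of Clec4f with nilotinib 30 mg/kg was lost without control mouse 33 (adjusted p = 0.0632). The test called 0 of the 15 markers of B cells, sinusoidal endothelium, stellate cells and cholangiocytes in any group, with at most 4 of them below an unadjusted p of 0.05, those in the group given ponatinib 10 mg/kg, where 25.8% of all genes were.

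The differences of the subunit genes moved with exon length, as did those of all genes. With imatinib the median log2 fold change of all genes was 0.22 in the shortest of 4 equal-sized length classes (57 to 2408 exon bases) and −0.15 in the longest (from 6468 bases). These medians were 0.22 and −0.12 with ponatinib 10 mg/kg, 0.24 and −0.12 with L-NAME, 0.22 and −0.09 with nilotinib 30 mg/kg, 0.14 and −0.06 with nilotinib 10 mg/kg and 0.09 and −0.07 with ponatinib 3 mg/kg. Of the 38 tested subunit genes 14 lie in the shortest class, with medians of 0.37, 0.25, 0.31, 0.25, 0.24 and 0.10 in the same order, and Psmd1 lies in the longest. Across the 38 genes, which share the same libraries, Spearman's rho of the difference with exon length was −0.24 to −0.48, beside −0.17 to −0.27 over 14262 genes.

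With the exon length trend of each mouse removed, 11 subunit genes were called higher and 1 lower with imatinib, 7 and 2 with ponatinib 10 mg/kg, 3 and 1 with nilotinib 30 mg/kg, 3 and 2 with L-NAME and 1 and 1 with nilotinib 10 mg/kg. Of all genes 7.76%, 10.6%, 3.50%, 8.61% and 0.953% were then called, in the same order. When the share outside genes entered the fit as a covariate, the numbers were 9 and 1, 4 and 1, 2 and 0, 3 and 1, and 0 and 0, where 4.56%, 2.58%, 0.671%, 1.80% and 0.0908% of all genes were called. Among the calls lost with this covariate were those of Psma7, Psmb1, Psmb3 and Psmd1 with nilotinib 30 mg/kg. Others were those of Psmd1 with nilotinib 10 mg/kg, Psmb1 with L-NAME and Psmb3 with ponatinib 10 mg/kg. That share was higher in every treated group than in control, so its part and that of the treatment cannot be told apart.

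**Figure D5:**
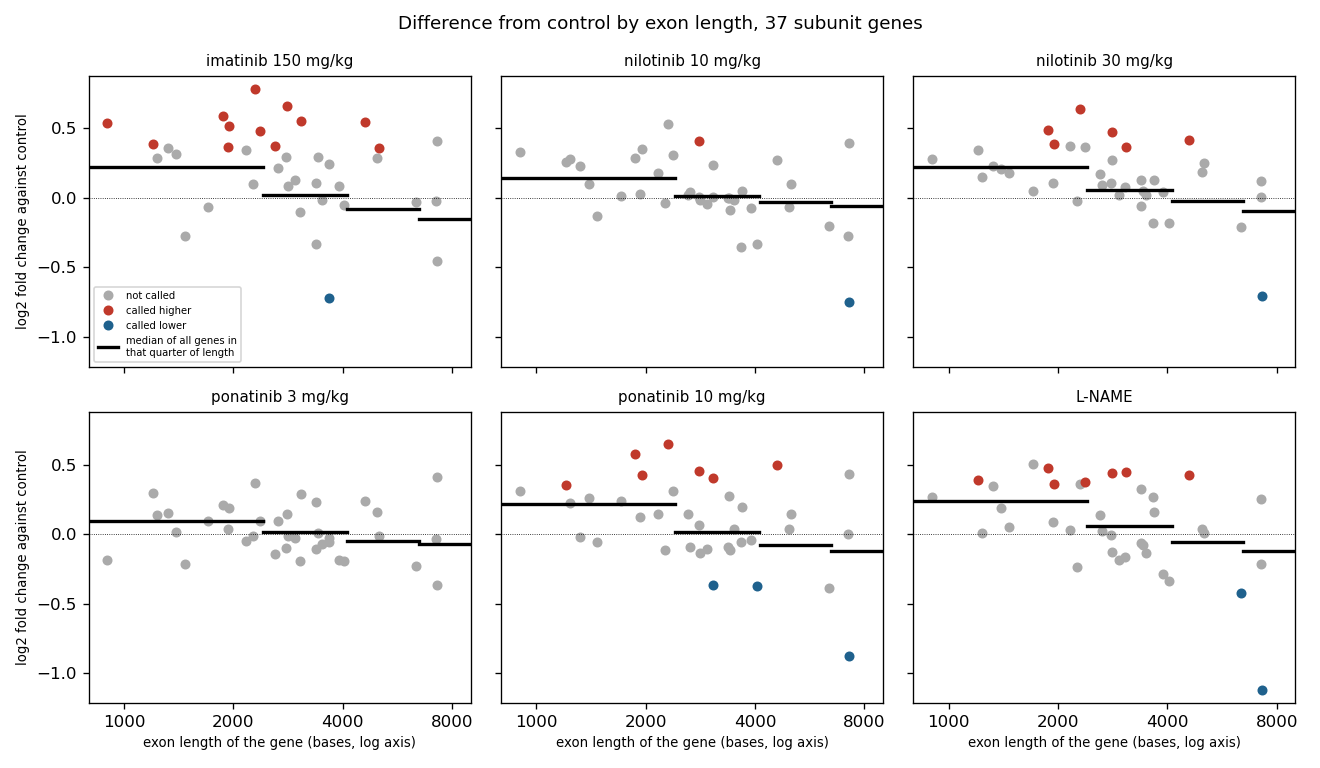
Log2 fold change against control of 37 subunit genes plotted by exon length (bases, log axis), 1 panel per treated group, with genes called higher in red and called lower in blue. Black lines are the medians of all genes in each of 4 length classes, which run from 0.22 down to −0.15 with imatinib, and the lowest point in the panels of nilotinib, ponatinib and L-NAME is Psmd1, at −1.12 with L-NAME.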

How the data were processed

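Liver mRNA of 56 mice (7 groups of 8, grouped by their labels) was prepared by the authors with a poly(A) kit that does not mark strand. Per the labels and the study's methods, reads were aligned to GRCm38 with TopHat2 2.0.14, Bowtie2 2.1.0 and SAMtools 0.1.18, and HTSeq 0.6.1p1 counted those with a unique match. The deposited values are raw counts per gene and mouse, without normalization.

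Members were matched by Ensembl identifier to GENCODE vM21 (44671 of 45513 identifiers matched). Counts were TMM-scaled and tested with edgeR 4.0.16 (R 4.3.3), quasi-likelihood, all 56 mice in one fit, after filterByExpr (14314 genes), with Benjamini-Hochberg adjustment over all genes. SEs follow from the F statistic. Ratios of 2 genes within a mouse were tested by exact permutation (numpy 2.4.6), and Spearman's rho was computed with scipy 1.17.1. On simulated counts for imatinib against control (14063 genes), 38 of 100 genes changed 1.5-fold and 87 of 100 changed 2-fold were called, with 8 false calls.

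Values are given in full for the 6 catalytic subunits and, per comparison with control, the 3 called members with the smallest p in each direction, and from related lists at most 3 called genes per comparison. Other names, and the comparisons with L-NAME and at matched dose, were chosen after their values were seen. The members and lists were chosen with earlier results of these data known. Alternatives were RLE factors, no filter, DESeq2 1.42.0, limma 3.58.1 voom with and without sample quality weights, the share of reads outside genes as a covariate, only the 16 mice compared, an unadjusted p below 0.01, and a pseudocount of 1. Added after seeing the data were fits without the deepest library, without the 3 deepest libraries, without control mouse 33 or 46 or ponatinib 10 mg/kg mouse 18, and with the exon length or GC trend removed. Promoters are from RefSeq. Reads marked as outside genes, ambiguous or not unique were left out of library sizes. No sequencing batch is given in the labels. Values of some single genes of the fixed lists are not reported here.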

Additional observations from a re-analysis of the deposited data

Results flagged for a closer look

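In 8 of 91 groups of 8 mice tested for the genes named above, the highest or lowest mouse lay apart from the rest by Dixon's criterion, which chance meets in about 1 of 20 groups. Control mouse 33 had the highest Psmb8 (131.9 CPM), Psmb9 (86.58 CPM) and Psmb10 (123.7 CPM) of its group, and the called fall of Psmb9 with imatinib did not hold without this mouse, while Psmb8, Psmb9 and Psmb10 were then called higher with L-NAME, as given above. Control mouse 46 had the highest Psmd1 (148.0 CPM). Psmd1 stayed called without it with L-NAME (14 of 14 alternatives called) and with ponatinib 10 mg/kg (14 of 14). Mouse 18 of ponatinib 10 mg/kg had the lowest Psmb6 (57.31 CPM) and the highest Psmd2 (170.7 CPM) of its group, and it was the highest of its 8 mice for 7 and the lowest for 12 of the 38 subunit genes. The lowest Psmb6 with imatinib was that of mouse 51 (90.95 CPM), and the lowest Psmb5 with ponatinib 3 mg/kg that of mouse 17 (13.84 CPM).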

How the results depend on the processing

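Of the counts of called subunit genes under the alternatives, 185 lay within 1.5 times the reported number and 40 did not, and no value reversed. Of the differences of single named genes, 1009 kept their side of the threshold, 46 passed it in addition and 37 no longer passed, 13 of these with the share of reads outside genes as a covariate. Depth limits Psma8, Psma3 and Psmd10 most, and the read counts of near-identical copies are uncertain. The cause of the shifts below was not tested.

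Subunit genes called against control moved from 13 to 23 with imatinib, from 7 to 13 with nilotinib 30 mg/kg, from 2 to 7 with nilotinib 10 mg/kg, from 0 to 4 with ponatinib 3 mg/kg, from 10 to 18 with ponatinib 10 mg/kg and from 9 to 16 with L-NAME when limma voom with sample quality weights was used, while the share of all genes called moved from 10.3% to 23.2%, 5.77% to 16.4%, 1.41% to 8.66%, 0.0419% to 3.99%, 13.1% to 26.1% and 11.8% to 26.1%. With the covariate they were 0 with nilotinib 10 mg/kg, 2 with nilotinib 30 mg/kg, 5 with ponatinib 10 mg/kg and 4 with L-NAME. With the exon length trend removed they were 4 with nilotinib 30 mg/kg and 5 with L-NAME. For nilotinib 10 mg/kg DESeq2 gave 7 and 1 was left with no filter on low counts, without the 3 deepest libraries, without control mouse 33 and without control mouse 46. An unadjusted p below 0.01 gave 7 there. The unadjusted p gave 1 with ponatinib 3 mg/kg. Of all genes it called 5.97% in the first of these 2 groups, 3.14% in the second, and 1.61 to 6.73% in the comparisons of treatments below.

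Between treatments, ponatinib 10 against 3 mg/kg moved from 0 to 3 with DESeq2, 5 with quality weights, 3 without mouse 18 and 5 at the unadjusted p. Ponatinib 10 mg/kg against imatinib moved from 1 to 0 with no filter and with only the 16 mice, to 2 with DESeq2 and without control mouse 33, to 3 without mouse 18 and to 5 at the unadjusted p. Against nilotinib 30 mg/kg it moved from 1 to 2 with quality weights and at the unadjusted p, and to 0 with only the 16 mice. Against nilotinib 10 mg/kg it moved from 0 to 1 with DESeq2, without mouse 18 and at the unadjusted p. Imatinib against nilotinib 30 mg/kg moved from 0 to 1 with quality weights, imatinib against L-NAME from 4 to 7 with limma voom, to 2 without the deepest library and to 10 at the unadjusted p, and nilotinib 30 mg/kg against L-NAME from 0 to 1 at the unadjusted p.

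Of the 18 log2 ratios within mice, 2 passed in addition without control mouse 33, Psmb8 to Psmb5 with ponatinib 3 mg/kg (0.743) and Psmb10 to Psmb7 with L-NAME (0.891). Adding 1 read in place of 0.5 moved no ratio across the threshold.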
